A study of Hippoglossus hippoglossus with 15 samples.

Results

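Low quality Atlantic halibut embryos at the 8-cell stage (8CS, 8 hpf, hours post fertilisation) were compared with high quality embryos at the germ ring stage (GR, 82 hpf), with 3 arrays in each group, or 6 of the 15 arrays of the series. The arrays were chosen by the stage and the quality in their labels. The series followed high quality embryos from 8CS through GR and a 10-somite stage to hatching on a custom 1-colour Agilent oligonucleotide array and added low quality 8CS embryos. Quality had been defined by fertilisation and hatching success, and both groups held embryos of farmed females, fertilised in vitro with pooled sperm. Each array measured a batch of whole embryos, so that fewer cells of a type and less RNA per cell cannot be told apart. The methods of the study describe the embryos for the quality comparison as a collection of its own, made at another site and incubated in dishes with antibiotics, whereas the labels name a single farm for all samples. Stage and quality, and possibly collection, differed together and cannot be told apart in this comparison.

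An embryo of 8 cells still lives on mRNA that the mother laid down in the oocyte, since the genome of a fish embryo is largely silent during the first cleavages. Transcription from the zygotic genome starts later, around the blastula stages, while maternal mRNA is cleared. At the germ ring stage a ring of thickened blastoderm spreads over the yolk and gastrulation begins. A comparison of 8CS with GR therefore takes in maternal transcripts that are lost, transcripts that are newly made and transcripts supplied by both sources.

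The arrays carried 10180 probe names, and 8837 of them reached the 20th percentile of signal on at least 1 of the 6 arrays and were tested. Levels are log2 signal less the 75th percentile of the array, so that a level of 0 is the 75th percentile and a difference of 1 is 2-fold. A probe is called measured in a group where the extraction software marked it as well above background on all 3 arrays. The share of probes well above background was 75.7% to 79.8% on the low quality 8CS arrays and 69.3% to 77.3% on the GR arrays. The lowest signal that counted as well above background lay between -7.35 and -6.86 on the low quality 8CS arrays and between -6.21 and -5.46 on the GR arrays, so that weak transcripts were harder to measure at GR. The 6 arrays lay on 4 slides, and slides 2 and 4 held an array of each group.

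The low quality 8CS arrays resembled each other closely. Over the tested probes they correlated at 0.979 to 0.989 with each other, the GR arrays at 0.976 to 0.992 with each other, and the high quality 8CS arrays at 0.958 to 0.987. Low quality 8CS and GR arrays correlated at 0.779 to 0.794. The median SD of a probe over 3 arrays was 0.26 in low quality 8CS, 0.27 in high quality 8CS and 0.32 at GR, on the log2 scale. By this spread the low and high quality 8CS arrays were nearly alike.

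Late-stage signal was low on the low quality 8CS arrays, with replicate 3 above the others. It was read from 146 probes with a mean level of at least 0 on the hatching arrays, measured there and well above background on no GR array. Of these, 12, 24 and 42 were well above background on low quality 8CS replicates 1 to 3, with median levels of -8.60, -8.82 and -7.87. High quality 8CS replicates 1 to 3 had 123, 143 and 33 of them, with median levels of -4.16, -3.74 and -8.00. Replicates 1 and 2 of the high quality group therefore stood apart from the other 4 arrays at 8CS. The study's table of transcripts raised at hatching holds 58 distinct probes, of which 10, 16 and 18 were well above background on low quality 8CS replicates 1 to 3, 11, 16 and 18 on the high quality 8CS arrays and 8, 14 and 16 on the GR arrays. By that table the 8CS groups were alike. Of the 7 defining late markers, cardiac mybpc3 was measured in both groups, and clec4e, at a level near background, in low quality 8CS only. cfd was well above background on 2 low quality 8CS arrays and on no GR array. c3, hepcidin, hatching enzyme and the nicotinic receptor chrna1 were well above background on no array of either group. All 6 maternal markers (h1m, zp-like, tdrd3, kif20a, fbxo5 and cldn4) were measured in both groups, and their median level was 1.74 to 1.99 on the low quality 8CS arrays against -0.12 to 0.14 on the GR arrays. The maternal markers came from the study's list raised at 8CS and the late markers from its list raised at hatching. Both lists were chosen with the same GR arrays, so the marker levels at GR are a description and not an independent check.

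Large parts of the array differed between the groups. Of 8837 tested probes, 4617 (52.2%) passed, which means a limma Benjamini-Hochberg adjusted p under 0.05 together with a difference of 2-fold or more. At GR 2552 probes (28.9%) were higher and 2065 (23.4%) were lower. Counting only probes that were measured in the brighter group, 2162 were higher at GR (24.5%) and 2050 were lower (23.2%). The other 390 of the probes higher at GR were not measured on all GR arrays, and only 15 of the lower probes were not measured on all low quality 8CS arrays. Tested probes that were measured in neither group had a median difference of 0.94 in favour of GR, against 0.16 for the 6646 probes measured on all 6 arrays and 0.27 for all tested probes. A dim probe is therefore given below as changed only where its brighter group was measured. Within slide 2, 2162 of the 2162 higher and 2049 of the 2050 lower probes kept their direction, and within slide 4 it was 2159 and 2047. The probes had been selected on these same arrays, so that this result was largely fixed in advance and is not a test of slide effects.

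**Figure D1:**
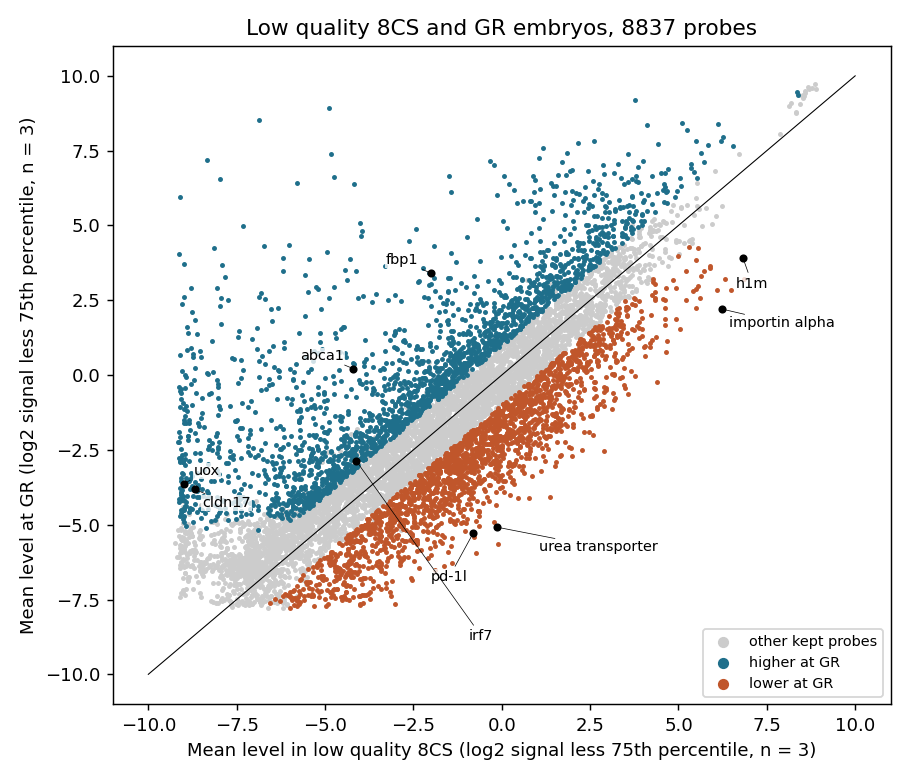
Mean level of each tested probe in low quality 8CS (horizontal axis) and at GR (vertical axis), both as log2 signal less the 75th percentile of the array, n = 3 arrays each. Coloured points passed the test (adjusted p under 0.05, at least 2-fold) and were measured in their brighter group, and the line marks equal levels. Points reach much farther above the line than below it.

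The largest rises exceeded the largest falls. Among probes measured on all 6 arrays, 1803 were higher and 1563 lower at GR, and the median size of these differences was similar, at 1.70 and 1.81 on the log2 scale. The tails were not similar. A difference of 16-fold or more was found for 180 higher and 27 lower probes, one of 32-fold or more for 104 and 2, and one of 64-fold or more for 55 and 0. The strongest rise was 12.22 and the strongest fall -5.43 on the log2 scale. These tail counts are for the main scaling and were not repeated under the others. Scaling by the spike-in controls, described next, shifts every difference by -1.02, which makes rises smaller and falls larger. Probes measured on all 6 arrays also had to stay above the background floor, which was higher on the GR arrays. The part of that floor in the tails was not tested.

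The balance of higher and lower probes depended on the scaling. The 75th percentile of the arrays stood at 9.89 to 10.5 on the low quality 8CS arrays and at 8.80 to 9.48 on the GR arrays when set against the spike-in controls, on the log2 scale. Scaled by the spike-ins, the median of all tested probes was -0.75, a shift of -1.02 from the main scaling, and 1142 probes were higher and 3873 lower. Quantile normalization gave 1987 higher and 2485 lower probes, and the value table of the series 1888 and 2396. No transcript named below that passed the test and was put through these scalings changed direction under any of them. mov10l, HH_90598325 and HH_90597325 were not put through the scalings or the background corrections. Background correction by normexp ended the calls of psmb9, il7, uox, srsf6, gtf 30kDa, znf518, c-type lysozyme, cldn17, lphn2, xpnpep2, sps1 and c1galt1, and, also with outlier local backgrounds replaced, those of irf7, mhc2a, tbk1, tdrd3, ndufa8, ubox5 and myo19.

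Maternal transcripts were lower at GR. The study lists 160 probes as raised at 8CS among high quality embryos, and all 160 were well above background on every low quality 8CS array. At GR 143 of the 160 were lower past the test and 17 did not pass, with a median difference of -2.21 against 0.27 for all tested probes. The list was chosen with the same GR arrays, so its direction is not independent evidence. The median level of the list was 0.39, 0.03 and -0.16 on low quality 8CS replicates 1 to 3 and -2.35, -2.32 and -1.79 on GR replicates 1 to 3. GR replicate 3 stood above the other GR arrays, and 131, 146 and 148 of the 160 were still well above background on GR replicates 1 to 3.

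The functional lists that follow hold only transcripts described in the study's tables. Most of these tables were chosen with the same GR arrays. The table of differences between low and high quality 8CS was chosen on the 8CS arrays instead. It gave 5 of the 7 interferon and antigen presentation transcripts and 2 of the 4 lymphocyte-related ones. The counts of the lists therefore largely restate how the tables were chosen and are given as a description, against 23.2% of all tested probes lower and measured and 24.5% higher and measured. For chromosomes and cell division, 13 of the 14 transcripts came from the list raised at 8CS, and 12 were lower at GR, 0 were higher, and the median difference was -2.39. The egg-type linker histone h1m (HH_Contig1140), which packs chromatin in the early embryo, was among the brightest, at 6.97, 6.75 and 6.75 in low quality 8CS and at 3.67, 3.46 and 4.62 at GR. It was 7.49-fold lower at GR (log2 difference -2.90, SE 0.32, limma adjusted p = 9.77e-05) and remained far above the 75th percentile on all GR arrays. For arhgap11a (HH_90606767) the levels were 2.75, 2.33 and 2.57 against -1.82, -1.65 and -0.60, a 15.0-fold fall (adjusted p = 2.77e-05). The inhibitor of the anaphase promoting complex, fbxo5 (HH_90606170), fell less, by 1.76 on the log2 scale (adjusted p = 0.00247), from 0.89, 0.83 and -0.16 to -1.61, -1.29 and -0.81. No group overlapped with the other for these 3 transcripts.

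All 5 germ line and egg coat transcripts came from the list raised at 8CS and were lower at GR, with a median difference of -1.85. The largest fall was that of rbpms2 (HH_Contig2795), an RNA-binding protein of the fish oocyte, from 0.89, 0.58 and 0.35 to -2.39, -2.46 and -1.81 (7.11-fold, adjusted p = 4.00e-05). Next came fkbp6 (HH_Contig1209), known from meiosis in the mouse, from -0.61, -0.64 and -1.09 to -3.73, -2.87 and -3.20 (5.60-fold). The zona pellucida-like transcript (zp-like, HH_Contig561), of the family that forms the egg envelope, was 2.86-fold lower and still bright at GR, at 1.38, 1.26 and 1.09. At GR zp-like, fkbp6, rbpms2 and the tudor domain transcript tdrd3 (HH_90606448) were still measured, whereas mov10l (HH_Contig2854) was well above background on no GR array and at least 2.58-fold lower (adjusted p = 0.00763). The call of mov10l was not put through the background corrections. tdrd3 fell 3.00-fold (adjusted p = 0.00293), to -4.36, -4.20 and -3.21, but its log2 difference was -0.60 (adjusted p = 0.332) and -0.73 under the normexp corrections, where the call was lost.

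The 6 RNA-binding and decay factors also came from that list, and 5 were lower and 0 higher at GR, with a median of -1.85. The RNase P subunit rpp21 (HH_Contig1090), needed to process tRNA, fell 8.27-fold (adjusted p = 1.98e-05), from 0.68, 0.90 and 0.67 to -2.55, -2.47 and -1.87. The helicase ddx19b (HH_90607717), which acts in mRNA export, fell 4.64-fold (adjusted p = 4.09e-05), from -0.79, -0.61 and -0.88 to -3.11, -2.81 and -2.998. Of 5 zinc finger transcripts 3 were lower and 2 did not pass. znf451 (HH_Contig2957) fell 5.96-fold, and znf518 (HH_90603133) was at least 7.64-fold lower because only 1 GR array had it well above background. A fold written as at least is the mean of the brighter group over the higher of the background floor and the signal of the probe itself on each dimmer array.

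Signalling and surface transcripts held some of the largest falls. The G protein alpha subunit gnat3 (HH_90606690), which is linked to taste receptors in mammals, fell 19.9-fold (adjusted p = 1.29e-05), from 1.32, 0.91 and 1.105 to -3.49, -3.62 and -2.51. Its relative gna14 (HH_Contig1119) fell 13.6-fold, from 2.93, 2.38 and 2.78 to -1.37, -1.52 and -0.33. Among 10 signalling transcripts 6 were lower and 2 higher, and the higher ones were phospholipase plcg1 (HH_90607316, 8.01-fold) and the adhesion receptor lphn2 (HH_90600215, 9.94-fold). The urea transporter (HH_Contig2338), a channel for urea, had the largest fall of all listed transcripts, from 0.59, -0.50 and -0.51 to -5.88, -5.50 and -3.86. This was at least 27.9-fold (adjusted p = 9.72e-05), with GR replicate 3 above the other GR arrays and 2 of 3 GR arrays well above background.

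Transcripts for enzymes of glycosylation and redox reactions were mostly lower. All 4 glycosylation transcripts were lower, led by the fucosyltransferase fut9 (HH_Contig591, 5.58-fold, adjusted p = 7.62e-05), and c1galt1 (HH_Contig3007), which builds core 1 O-glycans, fell 3.01-fold. Of 4 redox transcripts 3 were lower. The P450 reductase por (HH_Contig3018), which feeds electrons to cytochrome P450 enzymes, fell 9.39-fold (adjusted p = 1.83e-05), from 5.90, 5.95 and 6.40 to 2.71, 2.61 and 3.24. The selenophosphate synthetase sps1 (HH_193890253) fell 4.69-fold, but low quality 8CS replicate 3, at -1.06, lay near GR replicate 3, at -1.26. Agmatinase (HH_193889040), which turns agmatine into putrescine and urea, fell 7.66-fold (adjusted p = 0.000191), from 1.18, 1.32 and 1.00 to -2.30, -2.09 and -0.92.

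**Figure D2:**
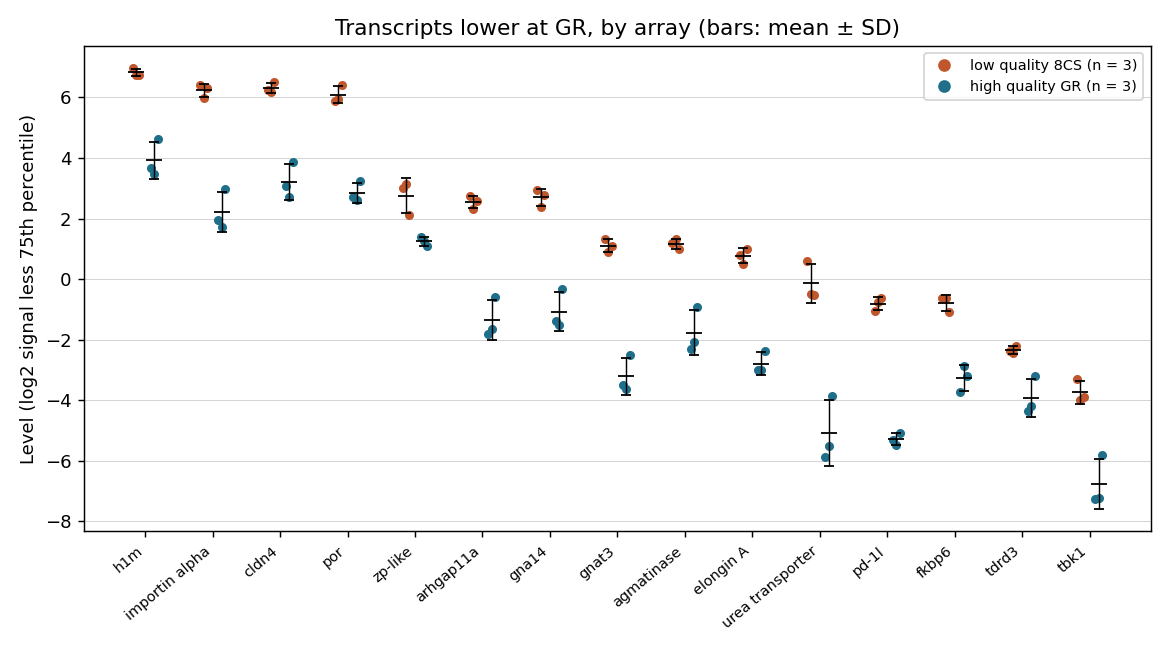
Levels of 15 transcripts that were lower at GR, as log2 signal less the 75th percentile of the array, for 3 low quality 8CS and 3 GR arrays. Points are arrays and bars the mean ± SD. No transcript overlaps between the groups, and in 13 of the 15 the highest GR level was that of replicate 3.

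Transcription and splicing factors moved both ways. Of 11 such transcripts 8 were higher and 3 lower at GR, and 0 failed the test. The 8 came from the study's GR list and the 3 from its 8CS list, so the split restates how the lists were made on high quality embryos, and the low quality 8CS arrays are the part that was not used for it. Elongin A (HH_90602129), an elongation factor of RNA polymerase II, fell 11.8-fold (adjusted p = 1.21e-05), from 0.80, 0.50 and 1.00 to -2.99, -3.01 and -2.36. The general transcription factor polypeptide of 30 kDa (HH_90602956) was at least 8.80-fold lower. In the other direction, the histone acetyltransferase myst1 (HH_90598331) rose 8.70-fold (adjusted p = 7.99e-05), from -2.44, -1.72 and -2.61 to 1.01, 1.25 and 0.34. The splicing factor srsf6 (HH_90597872) rose 8.00-fold (adjusted p = 3.36e-05), from -4.47, -5.40 and -4.95 to -2.02, -1.84 and -1.96.

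In 3 families the members came from different lists of the study, those that fell from the list raised at 8CS and those that rose from the list raised at GR, so their opposite directions restate the choice. Importin alpha (HH_Contig2565) and karyopherin alpha 4 (kpna4, HH_90599951) both carry proteins with a nuclear localisation signal into the nucleus. The first fell 16.3-fold (adjusted p = 2.38e-05), from 6.40, 5.99 and 6.30 to 1.95, 1.71 and 2.96, while the second rose 4.60-fold (adjusted p = 0.000109), from 3.63, 3.21 and 3.42 to 5.44, 5.43 and 5.995. Neither transcript overlapped between the groups.

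The claudins, which are proteins of the tight junctions between epithelial cells, divided in the same way. Claudin 4 (cldn4, HH_Contig106) fell 8.60-fold (adjusted p = 6.08e-05), from 6.26, 6.17 and 6.49 to 3.06, 2.70 and 3.85. Claudin 17 (cldn17, HH_Contig2438) was on no low quality 8CS array well above background, at -8.78, -9.20 and -8.07, and stood at -3.67, -3.51 and -4.26 at GR, which is at least 9.97-fold higher (adjusted p = 8.94e-06). Claudin 15 did not pass. In the ubiquitin pathway fbxo5 and the U-box ligase ubox5 (HH_193889945, 2.84-fold) fell, while the deubiquitinase usp7 (HH_90597758) rose 4.59-fold and dda1 (HH_90600151), a partner of the DDB1 ubiquitin ligase, rose 11.6-fold (adjusted p = 7.67e-06), from -0.17, -0.29 and -0.69 to 3.15, 3.38 and 2.92.

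Of 6 transcripts for sugars and lipids 4 were higher at GR and 0 lower, with a median of 1.84, and all 6 came from the lists raised at GR or at the 10-somite stage. Of 7 for nitrogen and urate 3 were higher and 1, agmatinase, was lower. Fructose-bisphosphatase fbp1 (HH_Contig485), a gluconeogenic enzyme, rose 41.8-fold (adjusted p = 3.30e-06), from -2.35, -2.28 and -1.33 to 3.22, 3.42 and 3.56. The inositol monophosphatase impa1 (HH_Contig2121) rose 21.5-fold (adjusted p = 4.08e-05), from -3.94, -2.61 and -2.52 to 1.67, 1.63 and 0.90. In a separate list of 8 transporters and channels 1 was higher and measured, and 2 were lower and measured. The higher one, the cholesterol exporter abca1 (HH_90598419), rose 21.2-fold (adjusted p = 1.71e-06), from -4.49, -4.10 and -4.00 to 0.16, 0.34 and 0.14. fbp1, impa1 and abca1 were measured on all 6 arrays, so that their folds are not bounds.

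In urate breakdown, the probe of the first enzyme rose and that of the next was not measured. Urate oxidase (uox, HH_90605985), which oxidises urate, lay at -8.83, -9.19 and -8.99 on the low quality 8CS arrays, none of them well above background, and at -4.09, -3.90 and -2.91 at GR, where all 3 arrays were. It was at least 11.3-fold higher (adjusted p = 4.63e-06). The probe of the next enzyme, hiu hydrolase (HH_90604223), was well above background on no array of either group and did not reach the filter, so no fold is given. The aminopeptidase xpnpep2 (HH_90607525) was at least 11.3-fold higher (adjusted p = 9.83e-06). In respiration 1 of 4 transcripts passed, a share like the 24.5% of all tested probes, the complex I subunit ndufa8 (HH_90603061), at 2.04-fold (adjusted p = 0.01), which fell under the 2-fold limit or the p threshold in 9 of 18 alternatives. In the secretory pathway 1 of 7 was higher and measured, a smaller share than among all probes, the transport protein bet1 (HH_Contig1360, 3.06-fold), which lost its call under spike-in scaling.

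**Figure D3:**
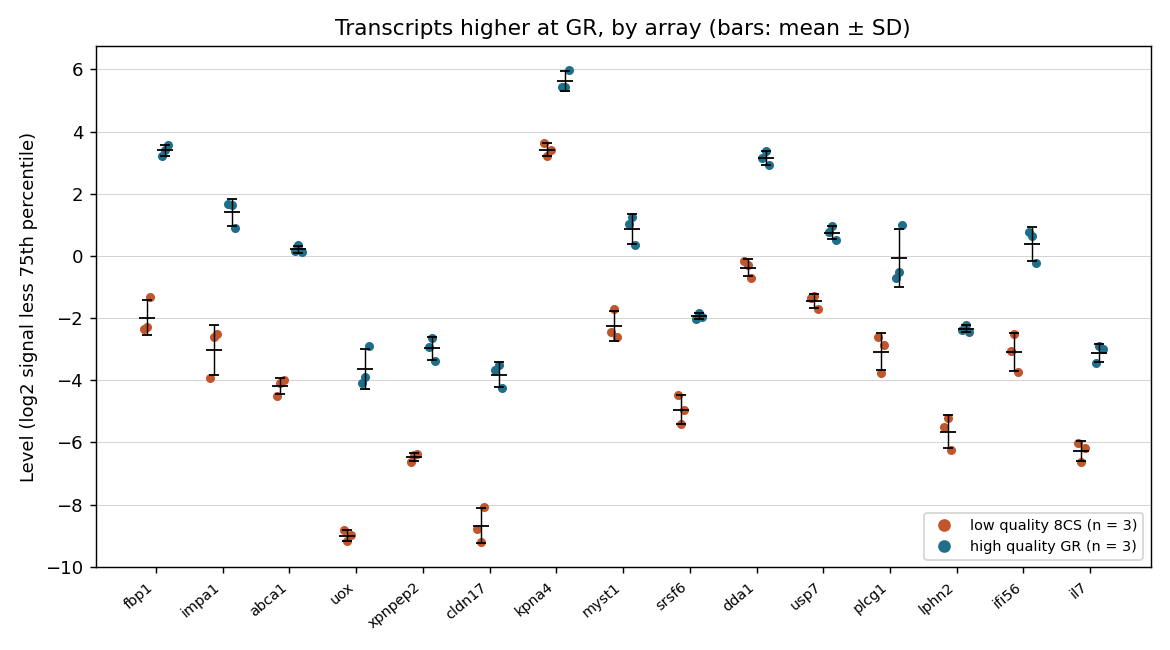
Levels of 15 transcripts that were higher at GR, as log2 signal less the 75th percentile of the array, for 3 low quality 8CS and 3 GR arrays. Points are arrays and bars the mean ± SD. uox and cldn17 were well above background on no low quality 8CS array, and every GR array lay above every low quality 8CS array for each transcript.

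The study's table of transcripts raised at GR, as used here, holds 42 probes. They were chosen with the same GR arrays, so their direction is given only as a description. Against low quality 8CS 39 of the 42 were higher, 0 were lower and 3 did not pass, with a median difference of 2.83. On each low quality 8CS array 37 of the 42 were well above background, with median levels of -2.64, -2.58 and -2.75, so that most had signal before the stage at which they were listed.

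The steepest rises belonged to probes without a description, as did most of the array. The tables used here describe 192 of the 10180 probe names. Of the 180 probes with a rise of at least 16-fold on all 6 measured arrays, 5 were among them. Few descriptions are therefore a trait of the tables and not particular to these probes. HH_Contig2735 rose 4766-fold, from -5.07, -5.16 and -4.27 to 7.61, 7.35 and 7.196 (log2 difference 12.22, SE 0.29, adjusted p = 1.06e-07). HH_Contig2073 rose 4691-fold, from -6.32, -6.16 and -4.86 to 6.71, 6.34 and 6.198 (adjusted p = 2.04e-07). Both remained bright later, at 6.17 to 6.29 and at 6.21 to 6.34 on the 10-somite arrays.

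The steepest falls of undescribed probes measured on all arrays were those of HH_Contig1754 and HH_Contig2086. HH_Contig1754 fell 43.1-fold (adjusted p = 8.62e-05), from 1.996, 0.59 and 1.52 to -4.96, -4.47 and -2.76. HH_Contig2086 fell 42.5-fold (adjusted p = 0.00284), from 2.79, 2.93 and 2.94 to -4.28, -3.81 and 0.52. Its value rests on which GR arrays are read, since GR replicate 3 was far above the others. Without that array the log2 difference was -6.93, and within slide 4, which held this array, it was -2.42.

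Some probes were measured in one group and on no array of the other. At GR 235 probes were measured that were well above background on no low quality 8CS array, and all 235 passed the test with a bound of at least 2-fold. They were selected on these same arrays, and the floor was higher at GR, so that this result was largely fixed in advance. The bound reached 10-fold for 156 of them, 100-fold for 44 and 1000-fold for 10. In the other direction 318 probes were measured in low quality 8CS and on no GR array, 234 of them passed, and the bound reached 2-fold for 153, 10-fold for 6 and 100-fold for 0. The higher background floor of the GR arrays enters this contrast, and its part was not tested. Without GR replicate 3 the probes measured only in low quality 8CS numbered 479.

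Probes measured only at GR reached higher levels than probes measured only in low quality 8CS. The 235 had a median level of -2.89 at GR and reached 7.204, whereas the 234 had a median level of -4.45 in low quality 8CS and reached -1.40. A probe had to exceed a higher floor to be measured at GR, and the lowest mean levels were -5.10 and -6.55. The part of the floor in the gap between the medians was not tested. The sets also differ in kind, since the 234 are only those of 318 that passed. HH_90598325, chosen after its values were seen, went from -8.95, -8.60 and -7.48 to 7.16, 7.27 and 7.18, at least 20685-fold (adjusted p = 1.06e-07). HH_90597325, chosen in the same way, went from -1.41, -1.46 and -1.33 to -6.69, -6.31 and -5.86, at least 20.6-fold lower (adjusted p = 2.13e-06). Of the 235 probes, 199 to 230 were well above background on a 10-somite array and 222 to 226 on a hatching array. A description was available for 5 of the 235 and 7 of the 234, against 192 of the 10180 probe names.

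High quality 8CS arrays had signal for part of the probes measured only at GR in the comparison above. Of the 235 probes, 43, 87 and 65 were well above background on high quality 8CS replicates 1 to 3, and 0 on any low quality 8CS array, where they were selected to be absent. HH_90598325 stood at -6.11, -5.84 and 2.63 on the high quality 8CS arrays, so that replicate 3 stood far above the others. For HH_Contig2735 the high quality arrays read -0.61, -0.18 and 0.76, and the rise to GR was 7.39 from high quality and 12.22 from low quality 8CS on the log2 scale. For HH_Contig2073 the high quality arrays read 0.96, 1.36 and 0.44, and the rise was 5.49 and 12.20. The GR arrays are shared by both differences.

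The brightest probes of the groups overlapped in part. Of the 100 brightest probes in low quality 8CS and the 100 brightest at GR, 41 were in both lists. Of the 100 from low quality 8CS, 27 were lower at GR, 23 were higher and 50 did not pass. Of the 100 from GR, 79 were higher than in low quality 8CS, 0 were lower and 21 did not pass, and their median level rose from 3.93 to 7.03. These lists were chosen on the values compared, so the counts are a description.

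Several immune transcripts also differed between low and high quality 8CS. A limma fit of low quality 8CS, high quality 8CS and GR on 9 arrays called 506 of 8837 probes (5.73%) different between the 8CS groups, 89 of them higher and 417 lower in low quality embryos. This count was not stable, since limma after normexp called 0 (473 at an unadjusted p under 0.05), and 99 were called without high quality 8CS replicate 1 and 94 without low quality 8CS replicate 1. High quality 8CS replicates 1 and 2 also carried late-stage signal, with 123 and 143 of the 146 late-stage probes well above background. The part of that signal in the 417 lower probes was not tested. Of the transcripts below, irf7, rnf213, mhc1a, mhc2a, psmb9, pd-1l and ms4a8a were listed by the study for a difference between these 8CS groups, which is therefore not independent evidence. The same low quality 8CS arrays enter their differences from GR. The rise of irf7 and the falls of psmb9, mhc2a, pd-1l and ms4a8a are therefore not independent of that choice either. The primers that the study used to amplify 3 of these transcripts (irf7, mhc2a and pd-1l) by PCR are printed here. They are not the array probes, and how specific they are to these transcripts was not checked. All are written 5′ to 3′ and no base is marked.
irf7 forward: actgtcaatgtggttcct
irf7 reverse: atcgtagaggctgttgtg
mhc2a forward: tgagtaactggatgtgaatg
mhc2a reverse: ctggcattgaggtagttctt
pd-1l forward: agaaggacgactcagact
pd-1l reverse: aacagtggcagtgacatt

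Interferon regulatory factor 7 (irf7, HH_90607192), a transcription factor that switches on type I interferon genes, was higher at GR than in low quality 8CS and lower at GR than in high quality 8CS. Its levels were -4.39, -4.16 and -3.83 in low quality 8CS and -2.91, -2.99 and -2.67 at GR, which is 2.41-fold higher at GR (log2 difference 1.27, SE 0.23, adjusted p = 0.00165). In high quality 8CS they were -0.52, -1.70 and -1.55, above every GR array, with a log2 difference of -1.596 between GR and high quality 8CS. The 8CS groups differed by -2.87 (low less high, SE 0.31, adjusted p = 0.00204). The rise from low quality 8CS to GR was small and lost its call under both normexp corrections, the spike-ins (0.25) and the value table of the series.

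The interferon-induced transcript ifi56 (HH_90607644) rose 11.3-fold (adjusted p = 9.54e-05), from -3.07, -2.51 and -3.72 to 0.78, 0.64 and -0.23. In high quality 8CS it was lower still, at -4.70, -4.79 and -4.62, and the 8CS groups differed by 1.60 (adjusted p = 0.0317). The kinase tbk1 (HH_Contig2917), which activates interferon regulatory factors, was at least 4.02-fold lower at GR (adjusted p = 0.000348), at -7.26, -7.24 and -5.80, none of them well above background. Under the normexp corrections its log2 difference shrank from -3.03 to -0.31 (adjusted p = 0.73) and -0.44 (adjusted p = 0.122), and the call was lost. The ubiquitin ligase rnf213 (HH_90598492) was at -4.29, -4.07 and -4.13 against -5.23, -5.31 and -4.92, a log2 difference of -0.98 that missed the 2-fold limit (adjusted p = 0.00405). It passed under quantile normalization, spike-in scaling and the value table and without low quality 8CS replicate 1 or GR replicate 3.

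Of the antigen presentation transcripts psmb9, mhc2a and mhc1a, psmb9 and mhc2a passed as lower at GR. The study lists all of them as raised in low quality 8CS. Taken from high quality 8CS instead, their log2 differences at GR were 0.03, 0.22 and 0.90, with mhc2a at background in both groups. The immunoproteasome subunit psmb9 (HH_Contig1979) fell 3.83-fold (adjusted p = 0.000953), from -1.27, -1.75 and -0.59 to -3.35, -3.20 and -2.88. High quality 8CS arrays read -3.52, -3.003 and -2.999, within the range of GR or close to it. The class II chain mhc2a (HH_38317730) was measured in low quality 8CS at -4.53, -4.83 and -6.58 and well above background on no GR array, at least 1.48-fold lower (adjusted p = 0.00503), nor on any high quality 8CS array. Under the normexp corrections its log2 difference went from -2.39 to -0.015 (adjusted p = 0.989) and -0.021 (adjusted p = 0.939), and the call was lost. The class I chain mhc1a (HH_Contig2306) was at -3.67, -3.62 and -3.93 against -4.16, -4.10 and -4.30, and its difference of -0.45 did not pass (adjusted p = 0.0885).

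Among lymphocyte-related transcripts, the T cell inhibitory ligand pd-1l (HH_Contig2081) fell most. Its levels were -1.04, -0.77 and -0.63 in low quality 8CS and -5.30, -5.48 and -5.09 at GR, at least 22.3-fold lower (adjusted p = 1.61e-06). High quality 8CS arrays stood between them, at -3.21, -2.55 and -2.42. The membrane protein ms4a8a (HH_Contig1463) fell 2.56-fold (adjusted p = 0.000506), from -0.01, 0.06 and 0.05 to -1.33, -1.17 and -1.46, and high quality 8CS arrays, at -1.51, -1.34 and -1.103, lay at the level of GR. Interleukin 7 (il7, HH_Contig1753), a growth factor for lymphocytes in mammals, rose 8.93-fold (adjusted p = 1.88e-05), from -6.02, -6.62 and -6.18 to -3.43, -2.91 and -3.0001.

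**Figure D4:**
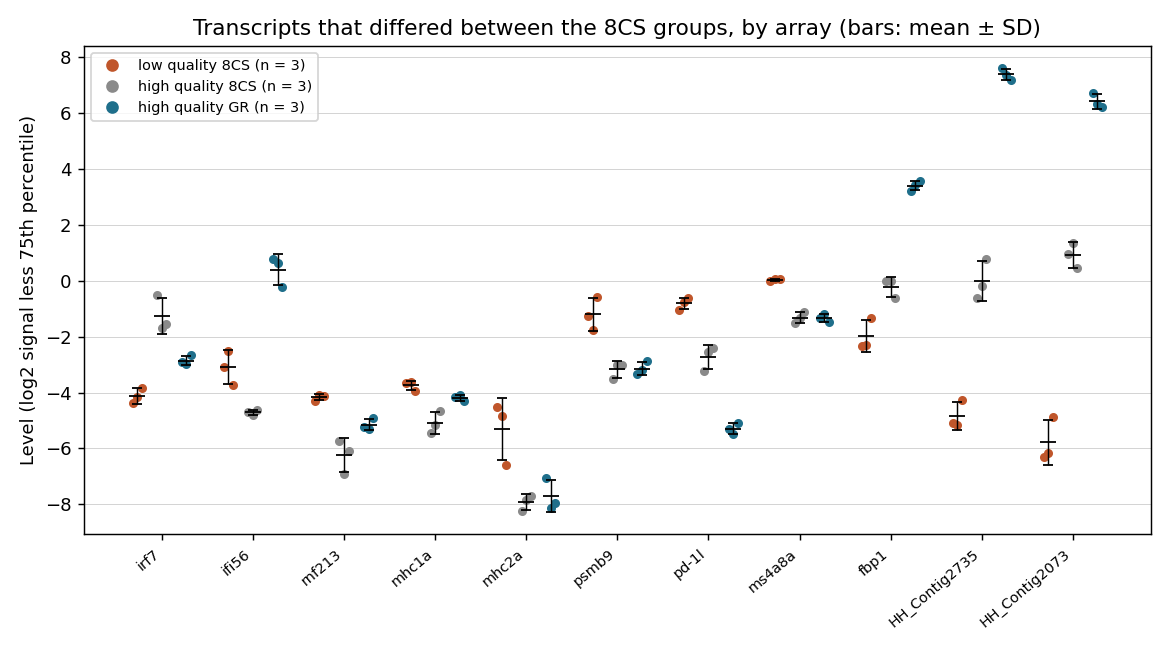
Levels of 11 transcripts that differed between low and high quality 8CS, as log2 signal less the 75th percentile of the array, for 3 low quality 8CS, 3 high quality 8CS and 3 GR arrays. Points are arrays and bars the mean ± SD. irf7 in GR lies between the 8CS groups, and psmb9, ms4a8a and mhc2a have overlapping levels in high quality 8CS and GR. mhc2a was well above background on no array of these 2 groups.

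The listed complement and other innate effectors were mostly at or near background in both groups. All 7 came from the study's list raised at hatching, so low signal at earlier stages restates the choice. Of 7 listed, 3 were tested and 1 passed as higher, against 24.5% of all tested probes higher and measured. This was c-type lysozyme (HH_Contig2776), an enzyme against bacterial cell walls. It was at least 3.43-fold higher at GR (limma adjusted p = 0.00768), from -6.83, -6.33 and -5.005 to -4.55, -4.09 and -4.19. Complement component c3 (HH_Contig1838) was well above background on no array of either group. Complement factor cfd (HH_Contig1932) was well above background on 2 low quality 8CS and 0 GR arrays, and the lectin receptor clec4e (HH_Contig1769) on 3 and 1. Their log2 differences of 0.65 (adjusted p = 0.112) and 0.26 (adjusted p = 0.511) did not pass.

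No muscle or cytoskeleton transcript of the list used here passed as higher. The list leaves out most muscle transcripts that the study profiled, such as tpm4 and the troponins. Of 7 listed, 5 were tested, 0 were higher and 1 was lower. Among all tested probes 24.5% were higher and measured and 23.2% lower and measured, so 0 of 5 says little. The lower one was the mitochondrial myosin myo19 (HH_193888503), by at least 2.94-fold (limma adjusted p = 0.000791). Its call was lost under both normexp corrections (-0.14 and -0.16). Parvalbumin (pval, HH_90987983), a calcium buffer of fast muscle, was already bright in low quality 8CS, at 1.06, 0.58 and 1.48 against 1.57, 1.07 and 1.44 at GR (log2 difference 0.32, SE 0.29, adjusted p = 0.353). The cardiac thick filament transcript mybpc3 (HH_Contig29) was at -3.62, -1.62 and -1.79 against -1.78, -2.29 and -2.11, so that low quality 8CS replicate 1 stood apart and the difference of 0.29 (adjusted p = 0.636) turned to -0.36 without it. The light chain mylc6 (HH_Contig320) did not pass (difference -0.03, SE 0.22, adjusted p = 0.912). The actin capping transcript capzb (HH_90598668) was 0.93 higher (adjusted p = 0.0344), short of 2-fold, and passed in 5 of 18 alternatives. These were the slide as a fixed block (1.08), no fold limit, and fits without low quality 8CS replicate 3 (1.05), GR replicate 1 (1.13) or GR replicate 2 (1.09).

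**Figure D5:**
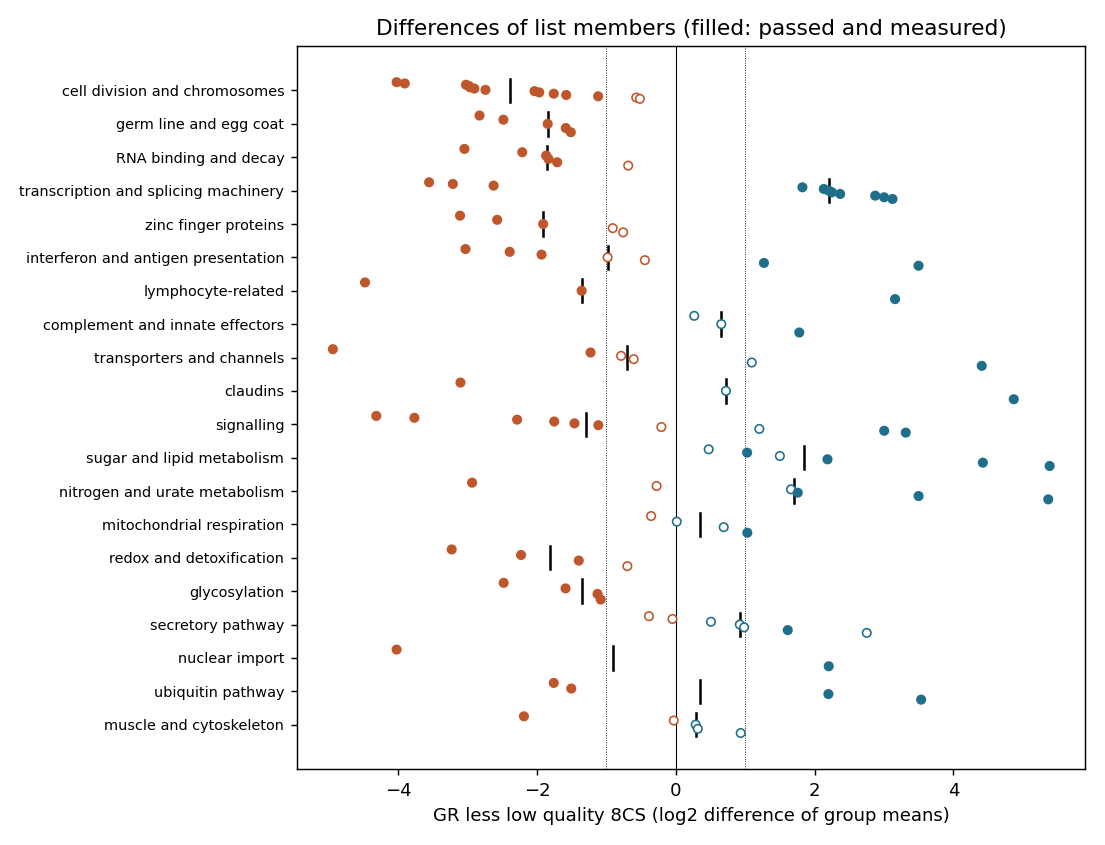
Log2 difference of GR less low quality 8CS for each tested member of 20 functional lists. Filled points passed the test and were measured in the brighter group, open points did not, vertical bars are list medians and dotted lines mark 2-fold. The cell division, germ line, RNA-binding, zinc finger, redox, glycosylation and muscle lists hold no filled point to the right of 0. All of these but the muscle list were drawn mostly from the study's list raised at 8CS, so this restates the choice.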

How the data were processed

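The authors deposited Agilent Feature Extraction output for each array (version 10.7.1.1 per the file headers, 7.2 in the submitters' processing notes), with linear spot intensity after background subtraction, before any scaling between arrays. A table of log2 values deposited by the authors covers 9017 probes, scaled to the 75th percentile and centred on each probe's median, used as an alternative. It held 0 columns of other samples. The genome build was not given in the sources used here, and genome positions were not analysed.

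Outlier and control spots were left out, log2 intensities were scaled to the 75th percentile and spots averaged per probe name. Groups were compared with limma 3.58.1 in R 4.3.3 (lmFit, eBayes, Benjamini-Hochberg), at an adjusted p under 0.05 and at least 2-fold. P-values measure the spread between 3 batches per group. Precision is limited by the number of arrays. No spot was saturated. In simulated data on 8837 probes with 200 changed for this comparison, 58% of changes of 1.5 and 94% of changes of 3 (log2) were recovered, and 12 unchanged probes were called. The adjusted p depends on the share of changed probes, which was far smaller there than the 52.2% that passed here. The recovery therefore does not give the power of this comparison.

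Named are 23 transcripts chosen by name, the 2 largest passing members of each of 21 lists in each direction, if without overlap and measured in the brighter group, and the 2 undescribed probes that rose and fell most among those measured on all 6 arrays. Members and lists were chosen with earlier results of these data known. A few further probes, among them mov10l, HH_90598325 and HH_90597325, were printed outside this rule and were not put through the alternatives. Names come from the tables of the paper. Alternatives covered background correction, scaling, filters, slide and replicate blocks, the arrays in the fit and the value table. Those for the 8CS groups were chosen after seeing the data.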

Additional observations from a re-analysis of the deposited data

Results flagged for a closer look

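The following named transcripts differed between low and high quality 8CS in the limma fit on 9 arrays, so that their difference from GR depends on which 8CS group it is taken from. Values are low less high quality 8CS on the log2 scale. irf7 differed by -2.87 (adjusted p = 0.00204), rnf213 by 2.08 (adjusted p = 0.00588), mhc1a by 1.34 (adjusted p = 0.0153) and mhc2a by 2.61 (adjusted p = 0.0238). psmb9 differed by 1.97 (adjusted p = 0.0105), pd-1l by 1.91 (adjusted p = 0.00458) and ms4a8a by 1.35 (adjusted p = 0.00535). These 7 were listed by the study for this difference.

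Outside that list, ifi56 differed by 1.60 (adjusted p = 0.0317), fbp1 by -1.76 (adjusted p = 0.0159), HH_Contig2735 by -4.83 (adjusted p = 0.000259) and HH_Contig2073 by -6.70 (adjusted p = 6.60e-05). The part of late-stage signal on the high quality 8CS arrays in these differences was not tested. For irf7 the difference from GR had opposite signs, GR less low quality 8CS being 1.27 and GR less high quality 8CS -1.596. rnf213 and mhc1a also had opposite signs, at -0.98 and 1.098 and at -0.45 and 0.90, though neither passed against low quality 8CS.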

How the results depend on the processing

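The count of 4617 probes stayed within 1.5 times under 17 of 18 alternatives and fell to 2179 under normexp (1101 higher, 1078 lower). With outlier local backgrounds replaced normexp left 1310 lower, and spike-in scaling gave 1142 higher and 3873 lower. Leaving out an array gave 4342 to 4811 probes (2329 to 2734 higher, 2012 to 2087 lower). Probes measured only at GR numbered 236 to 272 and those only in low quality 8CS 318 to 479, the latter without GR replicate 3. With the replicate block 4709 probes were called. Same-numbered arrays correlated at -0.03, 0.10 and 0.20 in their deviations, so the numbers were not taken as pairs, and the block changed no call of a named transcript.

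The 506 probes between the 8CS groups became 0 under normexp (473 at an unadjusted p under 0.05 in limma), 2218 under spike-in scaling and 137 with slide as a fixed block, and 94 to 659 without 1 of the 9 arrays (99 without high quality 8CS replicate 1, 94 and 278 without low quality 8CS replicates 1 and 2, 316 and 289 without GR replicates 1 and 2). Among the 61 named transcripts in these fits, 19 lost their call under normexp and 7 with backgrounds replaced, and the cause was not tested. The 61 include rnf213, mhc1a, pval, mybpc3, capzb, mylc6, cfd and clec4e, which had no call to lose. Directions turned only for transcripts that had not passed. rnf213 and mhc1a were 0.0045 and 0.056 under normexp, and 0.091 and 0.15 with backgrounds replaced. Spike-in scaling gave pval -0.70, mybpc3 -0.73, capzb -0.086, cfd -0.37 and clec4e -0.76. Under the same scaling mhc1a (-1.47) and mylc6 (-1.05), which had not passed in the main fit, passed as lower. Quantile normalization gave cfd -0.28 and clec4e -0.61, and the value table -0.28 and -0.60. mybpc3 was -0.24 with slide as a fixed block and -0.36 to 0.65 with an array left out, the lowest without low quality 8CS replicate 1. mylc6 was 0.029 and 0.070 under the normexp corrections, 0.020 under quantile normalization, 0.023 in the value table, and -0.13 to 0.12 with an array left out, above 0 without low quality 8CS replicate 2 or GR replicate 3.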
